A study of Mus musculus with 6 samples.

Results

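The transcripts described here belong to 9 genes that drive or restrain entry into the cell cycle in mouse cells. They are the D cyclins Ccnd1 (ENSMUSG00000070348), Ccnd2 (ENSMUSG00000000184) and Ccnd3 (ENSMUSG00000034165) and their partner kinase Cdk6 (ENSMUSG00000040274). The inhibitors are the Cip/Kip genes Cdkn1a (ENSMUSG00000023067), Cdkn1b (ENSMUSG00000003031) and Cdkn1c (ENSMUSG00000037664). The retinoblastoma gene Rb1 (ENSMUSG00000022105) and Myc (ENSMUSG00000022346) complete the set. Every peak listed under these Ensembl IDs was taken, whatever its strength. This gave 28 of the 22488 anti-PanQk peaks and 9 of the 8496 control peaks. Of the 9 genes, 7 had an anti-PanQk peak, 5 had a control peak, and Cdkn1c had none in either list.

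The study used iCLIP, in which ultraviolet light fixes a protein to the RNA it touches and sequencing of the pulled-down fragments places the contact on the transcript. The cells were C2C12, an established mouse line of muscle precursors, irradiated at 400 mJ. Of the 6 libraries, 1 used anti-PanQk on myoblasts and 2 used it on myotubes 72 h into differentiation. Anti-Qk6 and anti-Qk7 were used on myoblasts for 1 library each, and the control is 1 myoblast library made with an antibody to the HA tag. The lists used here come from the anti-PanQk and the anti-HA myoblast library, which share the cell line and stage and have no replicate. The other 4 libraries were not analysed here, so nothing below compares myoblasts with myotubes or Qk6 with Qk7. No level of any RNA was measured in these lists. More contact per transcript and more transcript therefore cannot be told apart, and the muscle identity of the cells could not be checked on marker genes.

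D cyclins bind the kinases Cdk4 and Cdk6, and the pair phosphorylates Rb, which then lets go of the E2F factors that switch on DNA replication genes. Cip/Kip proteins hold cyclin-kinase complexes in check, and Myc drives growth and cell-cycle entry. Myoblasts leave the cell cycle before they fuse, a step in which p21, the product of Cdkn1a, and Rb are known to take part. Quaking (Qk) proteins belong to the STAR family of RNA-binding proteins and act in splicing, transcript stability and translation. In oligodendrocyte precursors they are known to bind and protect the transcript of Cdkn1b, which encodes p27.

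In each list, a peak is described by its mm9 position, counted from 1, its strand and the number of reads in it, read from the last part of the deposited peak name and not scaled for library depth, which is unknown. A peak of the anti-PanQk list is called control-free when no control peak shares at least 1 nt with it on the same strand. Counting each listed interval once, the anti-PanQk list sums to 200878 reads and the control list to 150162. Ranges in parentheses after a share are exact Clopper-Pearson 95% intervals. They cover counting error only, and peaks of a gene lie on the same transcript and are not replicates.

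Most anti-PanQk peaks of these genes had no control peak on them. Among the 28, 26 were control-free (92.9%, 76.5 to 99.1), and across the whole list 86.0% were, which lies inside that interval. By gene, 7 of the 8 members with any peak had a control-free one, and 80.4% of all gene IDs of either list did. The peaks of these genes were mostly weak, as were those across the list. Of the 28, 7 had 3 reads (25.0%, 10.7 to 44.9), and 43.6% of all anti-PanQk peaks did. With 4 reads included it was 14 (50.0%, 30.6 to 69.4), and 60.4% of the full list. Only Ccnd1 and Cdk6 had peaks with a deposited p-value of at most 1e-06. There were 5 of these (17.9%, 6.06 to 36.9), and 19.4% of all anti-PanQk peaks were as strong. For each of these shares of peaks, the value of the full list lay inside the members' interval. With 28 peaks the intervals are wide, and the share of 3-read peaks was lower in the members. No test was made between the conditions because each has a single library.

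The control list gave fewer peaks in these genes, with more reads in the median peak. The median was 4.5 reads over the 28 anti-PanQk peaks and 16 over the 9 control peaks. Over the full lists the medians were 4 and 15. Of the 9 control peaks, 7 had 10 to 26 reads (77.8%, 40.0 to 97.2), a range that holds 63.2% of all control peaks. Anti-PanQk peaks were wider, with a median of 42.5 nt, and control peaks had a median of 21 nt. Over all peaks these were 32 and 22 nt. The 9 genes made up 0.125% of the anti-PanQk peaks (0.0828 to 0.180) and 0.106% of the control peaks (0.0485 to 0.201). In reads they made up 0.0891% (0.0765 to 0.103) and 0.0819% (0.0681 to 0.0977), over 1137 nt and 187 nt of peaks, with means of 6.39 and 13.7 reads per peak. With 1 library per antibody these shares describe the lists, and the difference between the conditions was not tested.

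**Figure D1:**
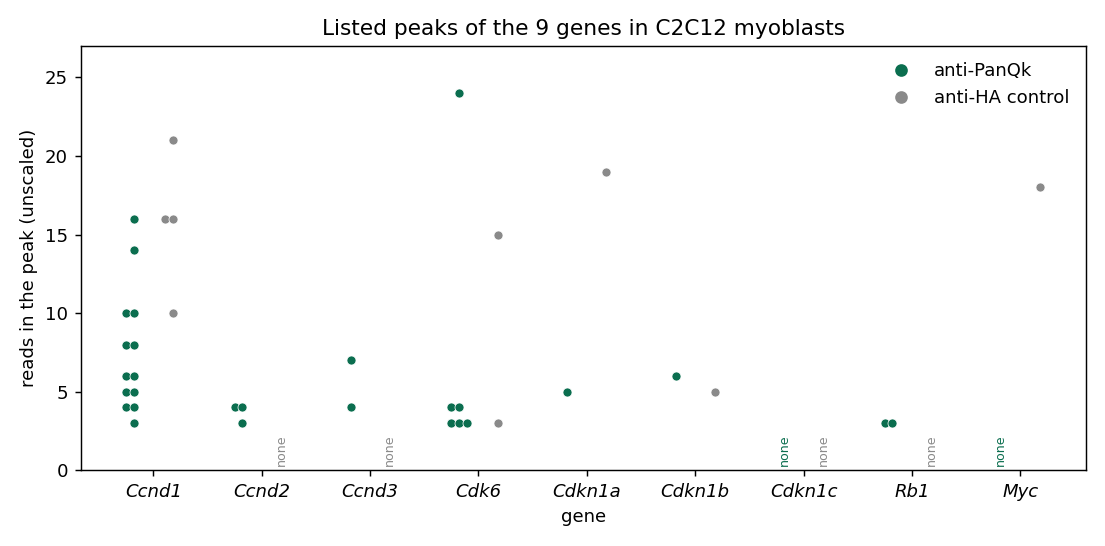
Reads in each listed peak (vertical axis, unscaled) for the 9 genes (horizontal axis), with the anti-PanQk peaks to the left of the anti-HA control peaks of the same gene. Each point is 1 peak, and "none" marks a list with no peak under that gene. Ccnd1 holds 13 of the 28 anti-PanQk points, the highest anti-PanQk point is the 24-read peak of Cdk6, and Myc has a control point only.

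Ccnd1, which encodes cyclin D1, carried the most peaks. Its 13 anti-PanQk peaks were 46.4% of all anti-PanQk peaks of the 9 genes and held 55.3% of their reads. The gene had 4 control peaks. Of the 13 anti-PanQk peaks, 11 were control-free (84.6%, 54.6 to 98.1), and 86.0% of the full list were. As many anti-PanQk peaks or more were found under 206 of the 7135 gene IDs in that list (2.89%), and 4 or more control peaks under 388 of the 4497 control IDs (8.63%). Ccnd1 peaks held 99 reads (80.5 to 121, exact Poisson interval) in the anti-PanQk list and 63 (48.4 to 80.6) in the control list, over 601 and 115 nt, numbers that are not scaled to each other.

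The anti-PanQk peaks of Ccnd1 span 4081 nt, and a weak peak lying apart sets the upstream end of that span. The gene lies on the minus strand of chromosome 7, so lower positions are further downstream. Of the 13 peaks, 12 fell in 2524 nt, from 152115854 to 152118377, and covered 23.4% of that stretch. Neighbours were between 0 and 400 nt apart, with a median of 147 nt. The last peak, of 4 reads at 152119924 to 152119934, lay alone 1546 nt further upstream. Since it bounds the span, the other 12 lie downstream of it by construction. Of the 13 peaks, 2 were in the last 10% of the 4081 nt and 3 in the last 20%. The most downstream peak also bounds the span, so its place in both was fixed by construction. A genome and annotation of mm9 were not used here, so the stretch was not assigned to exons, introns or untranslated regions.

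Within the downstream stretch the reads were highest toward its upstream part. The strongest Ccnd1 peak had 16 reads and was also the widest of all 28, at 121 nt (152117631 to 152117751). It was 382 nt from the nearest control peak. The next in strength had 14 reads, at 152118149 to 152118196. Peaks of 10 reads each stood on either side of the 14-read one, at 152118331 to 152118377 and at 152117899 to 152117942, 172 and 191 nt from a control peak. These are the 4 peaks of Ccnd1 with a deposited p-value of at most 1e-06, and 3 of them were control-free. Of all anti-PanQk peaks of 10 to 26 reads, 61.5% were. A pair of 8-read peaks, at 152117481 to 152117554 and 152116562 to 152116594, fell just short of the p-value limit, with deposited p-values of 1.43e-06 and 1.25e-06.

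The remaining Ccnd1 peaks were weaker. Besides a 6-read peak that met a control peak, one had 6 reads (152117318 to 152117351) and one had 4 (152116902 to 152116917). Peaks of 5 reads lay at 152116794 to 152116840 and at 152116202 to 152116249. The most downstream peak, at 152115854 to 152115884, had 3 reads, the smallest number in either list. It ended 45 nt from a control peak of 10 reads, and the 4-read peak at 152116902 lay 50 nt from a control peak of 21 reads. With a control peak within 100 nt counted as shared, these are the peaks of Ccnd1 that were lost, and 9 control-free ones were left. By that rule 78.2% of all anti-PanQk peaks were control-free.

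The control peaks of Ccnd1 were interspersed with the anti-PanQk peaks over most of that stretch. They had 16, 16, 21 and 10 reads from the upstream to the downstream end. The 21-read one (152116968 to 152116988) and the 10-read one (152115930 to 152115954) touched no anti-PanQk peak. A 16-read control peak at 152118134 to 152118158 was the single control peak of the 9 genes that anti-PanQk peaks overlapped. That is 1 of 9 (11.1%, 0.281 to 48.2), and 29.5% of all control peaks were overlapped. It lay across the border between a pair of abutting anti-PanQk peaks, sharing 10 nt with the 14-read peak and 15 nt with the 6-read peak at 152118102 to 152118148, which are 40.0% and 60.0% of the shorter peak. The other 16-read control peak, at 152123831 to 152123874, lay 3896 nt upstream of the most upstream anti-PanQk peak of the gene.

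**Figure D2:**
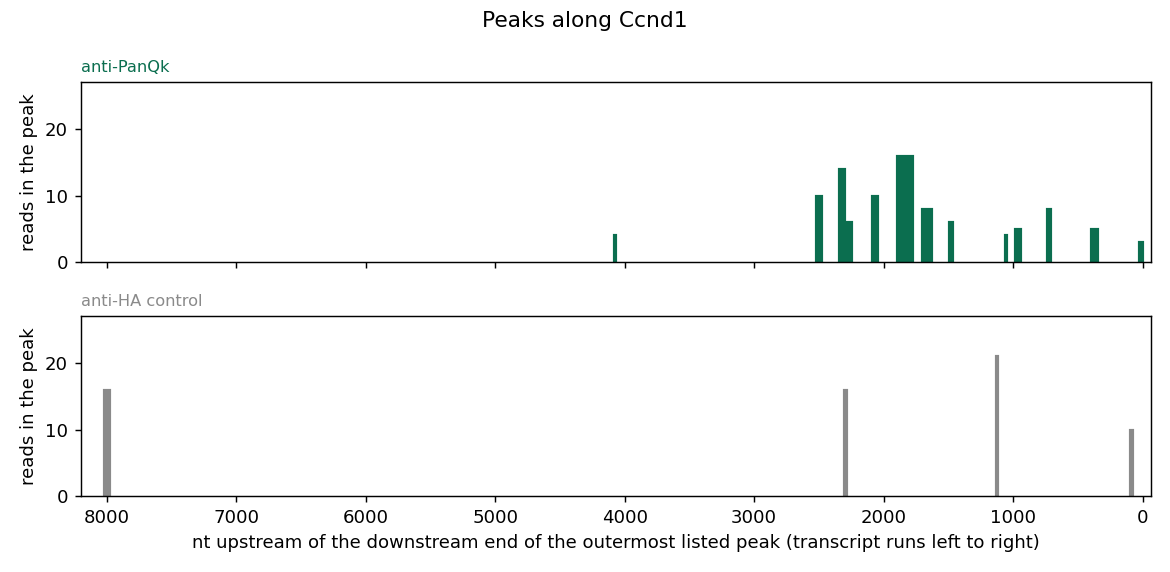
Peaks along Ccnd1 in the anti-PanQk list (upper panel) and the anti-HA control list (lower panel). Distance in nt upstream of the most downstream listed position is on the horizontal axis, and reads in the peak are on the vertical axis. Bar widths follow the peaks, but an outline makes narrow peaks look wider than they are. Of the 13 anti-PanQk bars, 12 stand within 2524 nt of the right-hand end together with 3 control bars. The fourth control bar stands alone at the far left.

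Cdk6, the kinase that D cyclins activate, had the strongest anti-PanQk peak of the 9 genes. This peak held 24 reads over 68 nt on the plus strand of chromosome 5 (3522003 to 3522070), with a deposited p-value of 4.72e-26. It was control-free, 559 nt from the nearest control peak, and held 58.5% of the reads in the anti-PanQk peaks of the gene. Among the 7135 gene IDs of the anti-PanQk list, 607 had a peak of at least 24 reads (8.51%).

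The other 5 anti-PanQk peaks of Cdk6 had 3 or 4 reads. Of these, 3 lay upstream of the 24-read peak and near it, with 3 reads each, at 3520823 to 3520873, 3521194 to 3521235 and 3521674 to 3521683. Together with the 24-read peak they span 1248 nt. The peaks of 4 reads lay far upstream, at 3374261 to 3374269 and at 3429137 to 3429141. They were 54867 nt apart, with 91681 nt from the second to the nearest downstream peak. The control list had 2 Cdk6 peaks, with 3 reads at 3521175 to 3521179 and 15 reads at 3522630 to 3522633, 5 and 4 nt wide. All 6 anti-PanQk peaks were control-free, as were 86.0% of the full list. In that list it was 97.3% of the peaks of 3 reads and 92.5% of those of 4 or 5. Beyond 100 nt from any control peak were 5 of the 6, and 78.2% of the full list. The 3-read peak at 3521194 lay 14 nt from the weaker control peak. At least 6 peaks were listed for 12.7% of the gene IDs in the anti-PanQk list.

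Ccnd2 and Ccnd3 encode the other D cyclins, and each was listed with anti-PanQk peaks alone. Being listed in the anti-PanQk list only was common, at 45.4% of all gene IDs of either list, and 3 of the 8 members with peaks were in that class, Rb1 being the third. The 4 members with peaks in both lists were Ccnd1, Cdk6, Cdkn1a and Cdkn1b, and 41.3% of the gene IDs were of that kind. Ccnd2, on the minus strand of chromosome 6, had peaks of 4 reads (127078820 to 127078862), 3 reads (127077489 to 127077507) and 4 reads (127077109 to 127077138). They were spread over 1754 nt and held 11 reads (5.49 to 19.7, exact Poisson interval). Ccnd3, on the plus strand of chromosome 17, had a 4-read peak of 10 nt (47736037 to 47736046) and, downstream of it, a 7-read peak of 83 nt (47736307 to 47736389). Together they held 11 reads as well. The 7-read peak was the stronger, with a deposited p-value of 1.23e-05. The D cyclin family thus ranged from 13 anti-PanQk peaks in Ccnd1 to 3 in Ccnd2 and 2 in Ccnd3, and the control peaks numbered 4, 0 and 0.

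The Cip/Kip inhibitors gave little. Cdkn1a, which encodes p21, had 1 anti-PanQk peak of 5 reads on the plus strand of chromosome 17 (29236741 to 29236789) and 1 control peak of 19 reads 652 nt downstream of it (29237442 to 29237449). Cdkn1b had 1 anti-PanQk peak of 6 reads on the plus strand of chromosome 6 (134875313 to 134875355). Its control peak, of 5 reads, lay 929 nt upstream (134874341 to 134874383), and both peaks were 43 nt wide. The anti-PanQk peak of each gene was control-free, as 86.0% of all anti-PanQk peaks were. Cdkn1c, which encodes p57, had no peak in either list.

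Rb1, the gene of the retinoblastoma protein itself, had 2 anti-PanQk peaks of 3 reads each on the minus strand of chromosome 14, at 73596049 to 73596080 and 73595591 to 73595632, and no control peak. Both were at the smallest read number listed, so neither would remain with 4 reads as the minimum. By number of peaks, Myc alone of the 8 members with any peak had more in the control list. It had no anti-PanQk peak and 1 control peak of 18 reads on the plus strand of chromosome 15 (61817496 to 61817507), a class with 13.3% of all gene IDs.

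**Figure D3:**
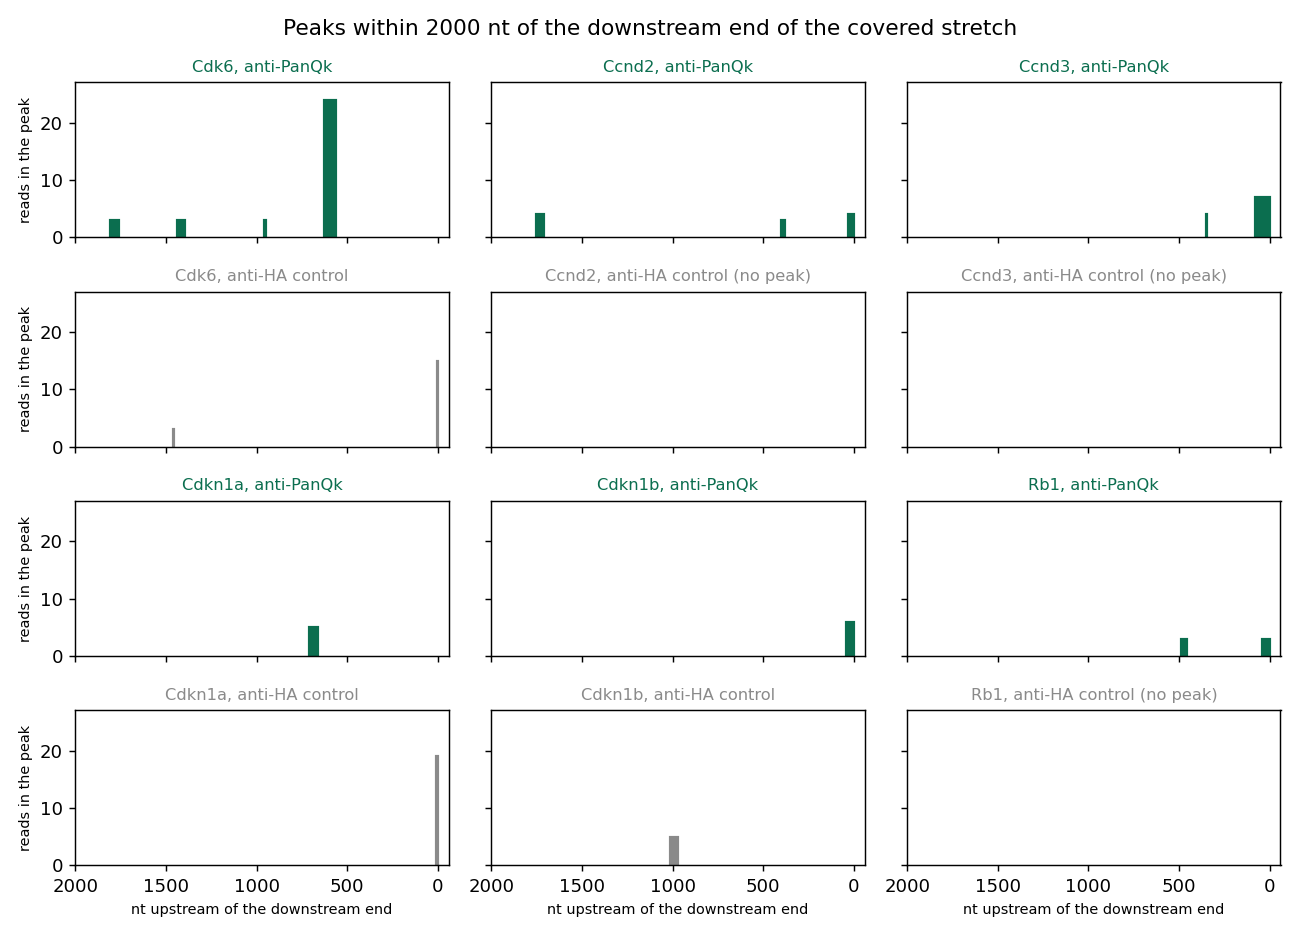
Peaks of Cdk6, Ccnd2, Ccnd3, Cdkn1a, Cdkn1b and Rb1 within 2000 nt of the most downstream listed position, with an anti-PanQk panel and, under it, an anti-HA control panel for each gene, distance in nt on the horizontal axis and reads in the peak on the vertical axis. No anti-PanQk bar shares a position with a control bar in these genes, and the 24-read bar of Cdk6 stands above all others. The 4-read Cdk6 peaks far upstream lie outside the range drawn.

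Counted by gene, anti-PanQk peaks outnumbered control peaks in 5 of the 8 members with any peak, against 69.2% of all gene IDs. These were Ccnd1, Ccnd2, Ccnd3, Cdk6 and Rb1. Cdkn1a and Cdkn1b had 1 peak in each list, as 12.7% of the gene IDs had equal numbers, and Myc had fewer, as 18.1% did. The total over the 9 genes changed order at the strictest limit tried. With a p-value of at most 1e-06 in both lists, 5 anti-PanQk and 7 control peaks were left in the 9 genes, and Ccnd1 and Cdk6 were the members with a control-free one. At that limit Ccnd1 had 4 peaks in each list and Cdk6 had 1 in each, and Cdkn1a and Myc had 1 control peak and no anti-PanQk peak. With 5 or more reads in both lists the order held, at 14 anti-PanQk and 8 control peaks. The 7 are 77.8% of the members' control peaks (40.0 to 97.2), and 72.8% of all control peaks passed the limit. With the limit on the anti-PanQk list alone, 2 of the 8 members with any peak had a control-free peak, and 14.0% of all gene IDs did. Applied to both full lists, the limit left 4370 anti-PanQk and 6189 control peaks.

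**Figure D4:**
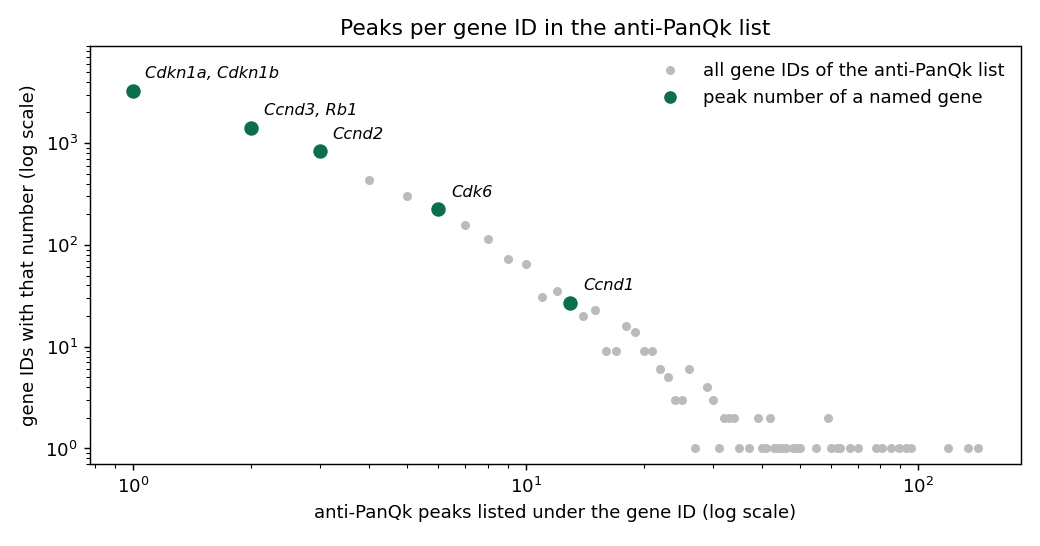
Number of gene IDs (vertical axis, log scale) against the number of anti-PanQk peaks listed under an ID (horizontal axis, log scale), with the 7 members that have a peak marked. Ccnd1 with 13 peaks and Cdk6 with 6 lie to the right of most IDs, whose median is 2, and Cdkn1a and Cdkn1b share the value 1 with 3258 IDs.

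Strong anti-PanQk peaks are the ones most often met by a control peak in this list, so the members were also set beside peaks of the same read number. All 7 member peaks of 3 reads were control-free, and 97.3% of all anti-PanQk peaks of 3 reads were. For 4 or 5 reads it was 10 of 10 and 92.5%, and for 6 to 9 reads 5 of 6 (83.3%) and 80.6%. At 10 to 26 reads, 4 of 5 were control-free (80.0%, 28.4 to 99.5), and 61.5% of all peaks of that strength were. The value over all peaks lay inside the exact interval of the members in each of the 4 classes. With 5 to 10 member peaks in a class these intervals are wide, so this does not show that members and list are alike. Beyond 100 nt from any control peak were 23 of the 28 member peaks, and 78.2% of all anti-PanQk peaks.

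Position along the genome, with any introns included, was described for the 3 members with at least 3 anti-PanQk peaks. It is not a position on the mature transcript. The covered stretch of a gene was measured from its first to its last peak in either list. A peak that bounds the downstream end lies in the last part nearly by construction, as the 1 counted for Ccnd2 does. On anti-PanQk peaks alone every gene has such a peak, members and others alike. The last 10% of the stretch held 3 of the 13 peaks of Ccnd1, 1 of the 3 of Ccnd2 and 4 of the 6 of Cdk6. That is 8 of 22 (36.4%, 17.2 to 59.3). Over the 2471 gene IDs with as many peaks, the share was 45.4%. The value for Ccnd1 depends on the control peak far upstream, which lengthens the stretch: measured on anti-PanQk peaks alone, 2 of its peaks were in the last 10%. On that measure the 3 members together had 7 of 22 peaks there (31.8%), and the 2471 gene IDs had 43.3%. For Cdk6 the 4-read peaks far upstream set the stretch, which is 147810 nt on anti-PanQk peaks alone. Its last 10% therefore takes in the whole downstream group of 4 peaks. The same stretch was 4081 nt in Ccnd1 and 1754 nt in Ccnd2, so the pooled share mixes windows of very different length. No member peak overlapped a peak listed under another gene ID, on either strand, so no member peak was counted more than once.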

How the data were processed

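The 2 peak lists were made by the authors with CLIPper on 1 library each, on mm9, per the file headers. Bowtie2 and TopHat are named in the submitters' processing notes, with no version. The p-values are those that the authors deposited. The last part of the deposited peak name was taken as its reads (another deposited value, with no other unit), and at least 3 reads were listed per peak. Each list was tied to its library by the name in its track line.

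The files give Ensembl IDs without symbols. The 9 names came with the member IDs, and for all 8 members with a peak the chromosome matched that of the symbol in RefSeq's GRCm38.p6 table, as did the strand for the 4 where it is given. The table names none of the listed IDs, so the wider cell-cycle and muscle marker lists could not be applied. Members and lists were chosen with earlier results of these data known. All 9 members are described.

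Same-strand overlap was counted with numpy 2.4.6 and pandas 2.3.3 under Python 3.11.15 and matched the count of bedtools 2.31.1. Intervals of shares and of read sums came from scipy 1.17.1. The code was tested on simulated data. Shares by peak count entries as listed, in which some intervals stand under more than 1 gene ID (322 repeats with anti-PanQk, 210 with the control). The alternatives were a p-value of at most 1e-06, 5 or more reads, merging within 50 nt, lists of equal length, sharing of 50% of the shorter peak, control peaks up to 100 nt away, either strand, and a control list without peaks of 10 to 26 reads. Sequences were not used, as no mm9 genome was at hand.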

Additional observations from a re-analysis of the deposited data

How the results depend on the processing

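Leaving out a replicate could not be done with 1 library per list. No paired analysis was possible because neither antibody has a second myoblast library. The main counts were 28 anti-PanQk and 9 control peaks, a difference of 19, with 26 control-free peaks in 7 genes. With a p-value of at most 1e-06 in both lists there were 5 anti-PanQk and 7 control peaks, so the difference was -2, with 4 control-free peaks in 2 genes. Applied to the anti-PanQk list alone (chosen after seeing the data), this limit also left 4 peaks in 2 genes. With 5 or more reads there were 14 anti-PanQk and 8 control peaks, a difference of 6, and 12 control-free peaks. Equal list lengths also left 12. The shortened anti-PanQk list had no peak below 5 reads, so for that list this setting nearly repeats the read limit. All of these settings admit fewer peaks. Removing the control peaks with 10 to 26 reads left 2 control peaks in the 9 genes, a difference of 26, with all 28 anti-PanQk peaks control-free. Without Ccnd1, a setting chosen after seeing the data, 15 anti-PanQk peaks, all control-free, and 5 control peaks were left, a difference of 10. The median of 4.5 reads became 14 with p at most 1e-06. Merging within 50 nt, an overlap of 50%, a distance of 100 nt and ignoring the strand kept the control-free count between 23 and 27. Ccnd2 and Rb1 had no control-free peak left with 5 or more reads or with equal list lengths. The share in the last 10% of the stretch, 36.4% for the members and 45.4% for all gene IDs with as many peaks, was 31.8% and 43.3% on anti-PanQk peaks alone. In the last 20% it was 50.0% and 53.8%, or 36.4% and 52.0% on anti-PanQk peaks alone.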

Other observations

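The peak names carry a running number per gene, which rose with the genome position within every member and list. In the anti-PanQk list the highest numbers of the 7 members add up to 51, of which 28 belong to listed peaks and 23 do not. In Ccnd1 the highest number was 20 for 13 listed peaks, in Ccnd2 it was 8 for 3, and in Cdk6 it was 9 for 6. Cdkn1b, with 1 listed peak, carried the number 5. In the control list the numbers of the 5 members add up to 13, of which 4 do not belong to a listed peak. The headers do not say what was left out between the numbers.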
